A study of Homo sapiens with 30 samples.

Results

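Synonymous coding sites are adenosines at which an A-to-G change leaves the encoded amino acid as it was. They were taken from a list of 382978 sites of A-to-G change in RNA from HEK 293T, an established cell line of human embryonic kidney origin. A site was a member when it lay in GENCODE 29 coding sequence (GRCh38; 1 transcript per gene, the APPRIS principal transcript and then the longest), outside stop codons, and when reading its A as G gave a codon for the same amino acid. This left 63886 members of 244644 listed coding sites, in 7608 genes when a member in the coding sequence of more than 1 gene is counted in each. Synonymous sites made up 26.1% of the listed coding sites, and 24.8% of all coding adenosines of the 8682 genes with a listed coding adenosine. In some other coding transcript 1196 members were not synonymous, and 4372 members lay in exons of more than 1 gene, where reads of both genes can mix.

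The study overexpressed RNA-guided adenosine deaminases to find their transcriptome-wide off-target A-to-G changes, and took poly(A) RNA 60 h after lipofection. In 16 libraries MCP, a phage coat protein whose ligand is the MS2 hairpin, carried the ADAR1 or ADAR2 deaminase domain (DD). Each domain was either wild type or carried glutamine in place of a glutamate (E-to-Q: E1008Q for ADAR1 and E488Q for ADAR2). Each fusion carried a signal for nuclear localisation (NLS) or nuclear export (NES), and each was expressed with or without the MS2 adRNA (a guide RNA that recruits the deaminase). Full-length ADAR2, wild type or E488Q, was expressed with or without the GluR2 adRNA in 4 libraries, and Cas13b fused to ADAR2 DD (E488Q) with or without its gRNA in 2. Controls were a GFP transfection, each guide by itself (MS2 adRNA, GluR2 adRNA and gRNA), and runs 2, 3 and 4 of 1 untransfected library. Every condition had 1 library, so a single condition has no replicate error, and SDs below are over libraries or over matched pairs of libraries. The values are the share of reads with G at each site (its level, in %), deposited without read counts. The depth behind a level is therefore unknown and no counting interval is given. The amount of each construct, the expression of the genes and the markers of the cell line were not analysed here.

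ADARs deaminate adenosine to inosine in RNA that is double-stranded at the site, and both reverse transcriptase and the ribosome read inosine as G. Their deaminase domains are known to disfavour a G just before the adenosine and to favour a G just after it. The substitution at the base-flipping glutamate is known as a hyperactive form. Because the genetic code is degenerate at the third base of most codons, an A-to-G change there is usually silent. All members sit at the third base of the 13 codons that end in A and share their amino acid with the G-ending partner. AUA is the exception among sense codons, since AUA codes for isoleucine and AUG for methionine. The middle base of the codon is then the neighbour on the 5′ side of the member, and the first base of the next codon is the neighbour on the 3′ side.

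The 10 members with the highest mean rise over the untransfected level are shown first, because they carry the local sequence at which silent changes were most extensive. Each line gives the coding strand of GENCODE 29 (GRCh38), 5′ to 3′, with T for U, as 27 bases made of the member's codon and 4 codons on either side. Capitals mark the edited adenosine, base 15 of the window, and its neighbours on both sides.
RUFY3, leucine codon 133: ttctgggggcctcTAGaactggtagaa
MYBL2, glutamate codon 219: gcccagcccacggAAGgccagggaagt
ZFR, glutamine codon 286: cagcagcagcagcAACagaagcaggca
BCAR1, leucine codon 864: ttccgccgcgtccTAGgccagctggca
AGBL5, leucine codon 771: gggaaaggtctgcTAGggactggagct
RAB5B, leucine codon 85: cgatatcacagctTAGcccccatgtac
MAPK8IP1, leucine codon 275: gccgatgtgcgacTAGaggccactgag
TM9SF4, alanine codon 221: gaggacctcaaagCAGatgagaagagt
TMEM8A, glutamine codon 279: gaccggtggctgcAAGtgacagctgag
CHD3, valine codon 614: tttgtcaagtgggTAGgactatcctac
In 6 of the 10 the adenosine stood between U and G, and in 9 the next base was G.

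For 6 codons with no member in that set, the member with the highest mean rise is shown in the same format, to give examples of further codons.
WBP2, lysine codon 78: ttttatctcatgaAAGactgtgagatc
SNRPB, arginine codon 112: agggctgctggcaGAGgaatcccagct
TRIM44, proline codon 202: tgtgtcctgtgtcCAGtcattggggct
CLIP1, arginine codon 298: aacgcagtgaggcGAGtgatggcgacc
MYBL2, glycine codon 187: aaggtggacacagGAGgcttcttgagc
AEN, serine codon 103: cccgggaaagcctCAGggcccttgccc
All 6 of these had G as the next base.

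A member was called in a library at an adjusted p under 0.01 in the authors' deposited table, provided its level was above the untransfected mean. By this rule 522 members were called with full-length ADAR2 without guide and 40130 with MCP-ADAR1 DD (E1008Q)-NES lacking the guide, the fewest and the most among the 22 deaminase libraries. In the first of these 0.817% of the members and 1.50% of all listed sites were called, and in the second 62.8% of the members and 59.2% of all listed sites. No more than 1 member was called in any control, namely threonine codon 111 of RPL8, a protein of the large ribosomal subunit, at 0.711% in the gRNA control (chromosome 8, position 144791443). Of all listed sites 0.00601% were called in that control, 0.00470% with the GluR2 adRNA alone, 0.00366% with the MS2 adRNA alone, 0.00157% with GFP, and 0.00104%, 2.61e-04% and 0% in untransfected runs 4, 3 and 2. The mean level over all members was 0.116% without transfection (at a member the SD of the 3 runs averaged 0.146 points) and between 0.689% and 11.5% in the deaminase libraries. Nearly every member was called somewhere, as was nearly every listed site: 63882 members in at least 1 deaminase library, where the share over all listed sites was 100.0% after rounding. The rule for listing is not given in the sources used here. In exactly 1 library 21790 members were called (34.1%, against 36.5% of all listed sites), in at least 11 there were 4643 (7.27% against 6.63%), and in all 22 there were 86 (0.135% against 0.130%).

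Among the 16 MCP libraries, the ADAR1 fusions held more called members than the ADAR2 fusions at every matched setting. Wild-type MCP-ADAR1 DD-NES had 21796 called members without the MS2 adRNA (34.1%, against 30.3% of all listed sites) and 18934 with it (29.6% against 26.4%). Its NLS form had 4172 called members without the MS2 adRNA (6.53%, against 5.35% of all listed sites) and 5937 with it (9.29% against 7.45%). With the guide the wild-type count was lower for the NES and higher for the NLS form. The E1008Q form with the NES had 40130 called members without the MS2 adRNA (62.8%, against 59.2% of all listed sites) and 34924 with it (54.7% against 51.1%). With the NLS the E1008Q form had 16638 called members without the MS2 adRNA (26.0%, against 23.5% of all listed sites) and 20647 with it (32.3% against 28.9%). In these 8 libraries the called share was higher among the members than among all listed sites. Wild-type MCP-ADAR2 DD-NES had 1744 called members without the MS2 adRNA (2.73%, against 2.48% of all listed sites) and 3819 with it (5.98% against 5.29%). There were, for its NLS form, 760 called members without the MS2 adRNA (1.19%, against 0.982% of all listed sites) and 910 with it (1.42% against 1.24%). The wild-type ADAR2 counts were higher with the guide for both signals. With E488Q and the NES there were 6402 called members without the MS2 adRNA (10.0%, against 9.21% of all listed sites) and 7687 with it (12.0% against 11.2%). With E488Q and the NLS the counts were 5151 called members without the MS2 adRNA (8.06%, against 7.32% of all listed sites) and 6928 with it (10.8% against 9.94%). In the 8 ADAR2 fusion libraries, too, the members' share was the higher. Full-length ADAR2 had 522 called members without the GluR2 adRNA (0.817%, against 1.50% of all listed sites) and 2263 with it (3.54% against 4.85%). Full-length ADAR2 (E488Q) had 2865 called members without the GluR2 adRNA (4.48%, against 6.72% of all listed sites) and 16821 with it (26.3% against 32.7%). In these 4 full-length libraries the called share was lower among the members than among all listed sites. Cas13b-ADAR2 DD (E488Q) had 20078 called members without the gRNA (31.4%, against 29.5% of all listed sites) and 8987 with it (14.1% against 12.9%). The guide thus went with more called members in both full-length forms and with fewer in the Cas13b fusion. The median level of called members stayed in a narrower range than their number, from 5.23% in MCP-ADAR2 DD-NLS without guide to 12.4% in full-length ADAR2 (E488Q) with guide.

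The highest members rose to most of the reads in some libraries and stayed near 0 in all controls. RUFY3 codes for a RUN-domain protein of axon growth and vesicle transport. Its leucine codon 133 (CUA; ENSG00000018189.12, chromosome 4, position 70763598, plus strand) had a lowest level of 11.1%, a median of 57.1% and a highest level of 75.0% over the 22 deaminase libraries, and 0% in all 7 control samples. Its mean rise was 54.6 ± 16.7 points (SD over 22 libraries), and it was called in 20 of 22. MYBL2 codes for a cell-cycle transcription factor of the MYB family. Its glutamate codon 219 (GAA; ENSG00000101057.15, chromosome 20, position 43692313, plus strand) ranged from 10.9% to 81.6% with a median of 54.8%, rose by 53.2 ± 19.6 points (SD, 22 libraries) and was called in all 22, while no control exceeded 0.472%. ZFR is a zinc-finger RNA-binding protein. Its glutamine codon 286 (CAA; chromosome 5, position 32406948, minus strand) was the only member of the 10 with C as the next base, and ranged from 0.758% in full-length ADAR2 without guide to 80.2% in MCP-ADAR2 DD (E488Q)-NES without guide, around a median of 60.0%.

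The other highest members lay in genes of unlike function. Leucine codon 864 of BCAR1, the adhesion adaptor p130Cas (chromosome 16, position 75229532), rose by 48.9 ± 17.6 points (SD, 22 libraries). Leucine codon 771 of AGBL5, a carboxypeptidase that acts on tubulin (chromosome 2, position 27068702), rose by 48.1 ± 17.5 points, and leucine codon 85 of RAB5B, a GTPase of early endosomes (chromosome 12, position 55990038), by 47.1 ± 22.0 points. MAPK8IP1, a scaffold of the JNK pathway, rose at leucine codon 275 (chromosome 11, position 45902592) by 46.1 ± 18.0 points. The rise was 45.5 ± 18.9 points at alanine codon 221 of TM9SF4 (chromosome 20, position 32145101), 44.8 ± 17.8 at glutamine codon 279 of TMEM8A (chromosome 16, position 376611) and 44.7 ± 20.3 at valine codon 614 of CHD3, a chromatin remodeller of the NuRD complex (chromosome 17, position 7895500). In 7 of these 10 members the lowest level was in full-length ADAR2 without guide, the library with the fewest called members. The range over libraries was wide at each of them, as the plot of the 10 highest sites shows.

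**Figure D1:**
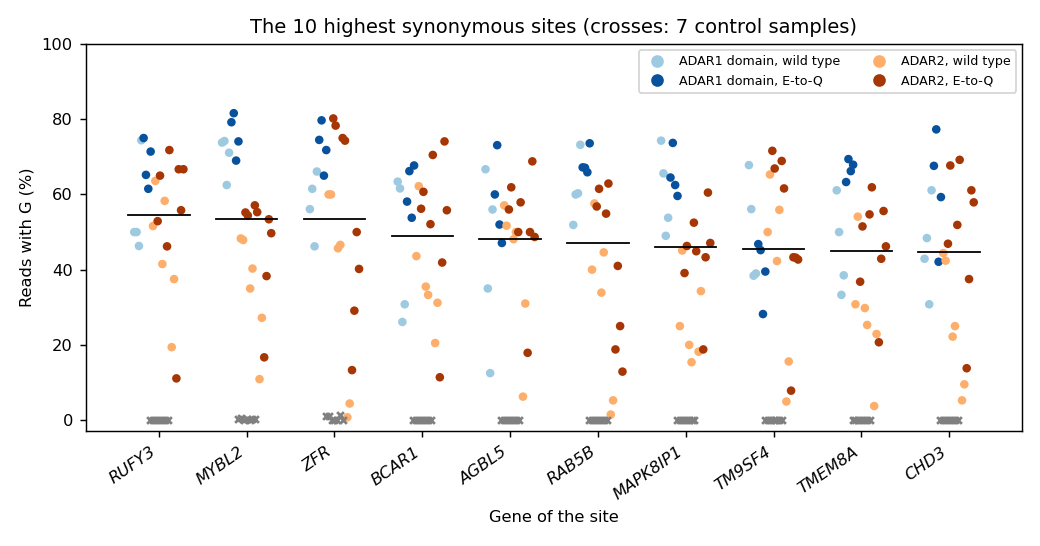
Level (reads with G, in %) at the 10 synonymous sites with the highest mean rise, by gene; each point is 1 deaminase library, coloured by deaminase and substitution, the black line is the mean of the 22 libraries, and grey crosses are the 7 control samples. Levels run from under 20% to over 50% at every site, and the controls lie at or near 0, at most 1.32% (ZFR).

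Over all members the rise was small for most and large for a few. The median mean rise was 2.51 points, 5280 members rose by more than 10 points, 892 by more than 20 and 156 by more than 30. A mean below the untransfected level was seen at 56 members. Before any transfection the members were nearly free of G: 41122 were at 0 in each of the 3 untransfected runs, 901 had an untransfected mean of at least 1%, and 7 of at least 10%.

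The share of synonymous adenosines that were listed differed widely among codons and, with codons pooled, among middle bases. Codons with a middle U, which code for leucine and valine, were highest, with 11.4% of their synonymous adenosines listed. Those with a middle A (lysine, glutamine, glutamate) had 7.36% listed and those with a middle C (alanine, proline, serine, threonine) 6.30%. Those with a middle G (arginine, glycine) had 2.07%. Single codons did not all keep the order of these pooled groups. By codon, the listed share was 15.6% for CUA, 10.6% for GUA, 9.47% for CAA and 8.58% for UUA. It was 7.86% for GAA, 7.65% for GCA, 7.19% for CCA, 5.76% for AAA, 5.57% for UCA and 4.35% for ACA. The lowest were CGA at 3.53%, GGA at 1.84% and AGA at 1.55%. GAA gave the most members, 13121, since it was also the most frequent of these codons, and AGA the fewest, 938. Nearly all listed sites had a call in these same libraries, so listing is not separate from the calls, and these shares are a description without a test.

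Levels were highest in the codons with a middle U, as listing was for CUA and GUA, while CAA was listed more often than UUA. The mean rise was 5.80 points over the members in CUA codons, 4.93 in UUA and 4.70 in GUA, and 2.21 in CGA, 2.25 in GGA and 2.27 in AGA. Members in CUA codons were called in 4.75 of the 22 libraries on average and those in GGA codons in 2.71. No member in a CGA or GGA codon was called in all 22 libraries and 1 was in an AGA codon, arginine codon 112 of SNRPB, a core protein of the spliceosome (chromosome 20, position 2463831). This site ranged from 4.51% in MCP-ADAR1 DD-NLS without guide to 56.8% in full-length ADAR2 (E488Q) with guide, with a median of 33.6%. The highest CGA member, arginine codon 298 of CLIP1, a microtubule plus-end protein (chromosome 12, position 122361070), ranged from 0% to 60.0% with a median of 10.3%. The highest GGA member, glycine codon 187 of MYBL2 (position 43692217), stood at 0% to 72.2% with a median of 21.7%. Levels well above the median of the group thus occurred after G as well. The 2 MYBL2 members lie in the same message.

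The extremes of the order by amino acid were shared by most libraries. Leucine had the highest called share of the 11 amino acids in 19 of 22 libraries, and arginine and glycine had the 2 lowest in 22 of 22. Of the synonymous adenosines of leucine codons a mean of 2.41% were called per library, from 0.108% in full-length ADAR2 without guide to 8.46% with the guide-free MCP-ADAR1 DD (E1008Q)-NES fusion. For valine the mean was 2.12%, for glutamine 1.75%, for glutamate 1.39% and for alanine 1.34%. Proline followed at 1.19%, lysine at 0.976%, serine at 0.903% and threonine at 0.686%. Arginine had 0.296% and glycine 0.227%. The plot of called shares by amino acid shows the fall from leucine to arginine and glycine in each class of deaminase.

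**Figure D2:**
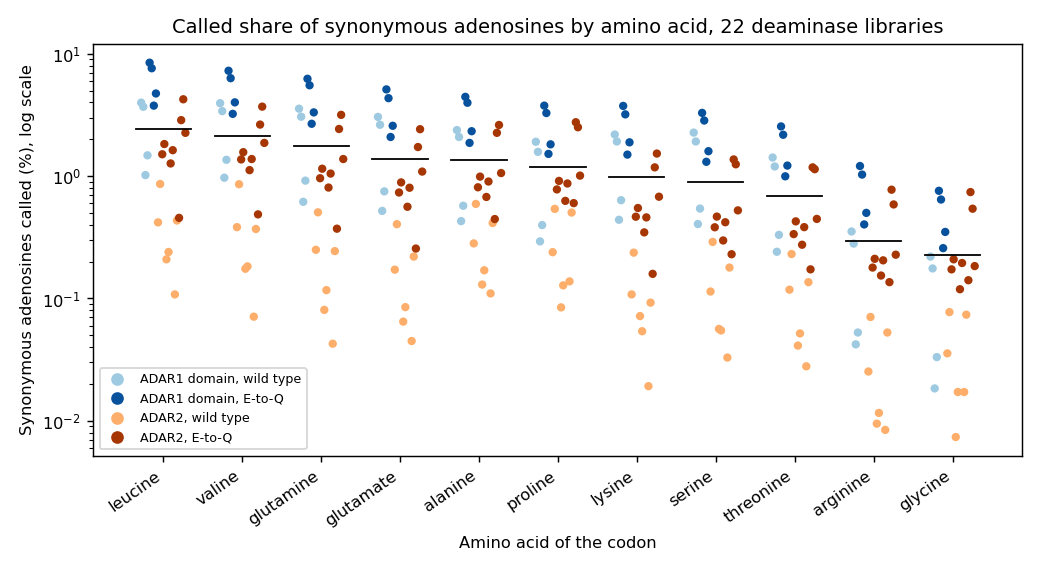
Share of the synonymous adenosines of each amino acid that were called (%, log scale), by amino acid; each point is 1 of the 22 deaminase libraries, coloured by deaminase and substitution, and the black line is the mean of the libraries. The mean falls from 2.41% for leucine to 0.227% for glycine, and points of 1 colour spread by more than the step between neighbouring amino acids.

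The 3 libraries in which leucine was not highest were all of full-length ADAR2, and proline led in them. With full-length ADAR2 without guide 0.138% of the proline and 0.108% of the leucine adenosines were called. With its guide the shares were 0.504% and 0.434%, and with full-length ADAR2 (E488Q) without guide 0.602% and 0.456%. Codons with a middle C held 49.2%, 44.7%, 41.4% and 36.3% of the called members in the 4 full-length libraries, the last being ADAR2 (E488Q) with its guide, and 24.2% to 36.4% in the other 18. Codons with a middle U held 22.0%, 21.9%, 19.5% and 19.9% in the same order. The full-length protein keeps the double-stranded RNA binding domains that the fusions lack. The full-length and fused forms also differ in carrier, signal and guide, so these cannot be told apart, and the difference was not tested.

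Listing also differed with the first base of the next codon. In 69.1% of the members the next codon began with G, against 39.7% of all synonymous adenosines of the same genes. Of the adenosines followed by G 11.4% were listed, of those followed by C 5.92%, by A 2.10% and by U 2.09%. With both neighbours combined, the listed share was 19.7% for adenosines between U and G, 13.3% between A and G, 10.7% between C and G and 4.07% between G and G. It was 0.515% between G and A and 0.429% between G and U. A CUA codon followed by G was listed in 25.7% of 12617 cases and an AGA codon followed by U in 0.322% of 8067. Listing also rose slightly along the message, from 6.18% in the first 10% of the coding sequence, where read coverage was not measured, through 6.06% in the third such part to 7.27% in the last.

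Silent changes move a message from an A-ending to a G-ending codon. The G-ending partner was more frequent than the A-ending codon in the coding sequences of these genes for 7 of the 13 codons (those for lysine, glutamine, glutamate, leucine and valine, and CGA), and 8.04% of their adenosines were listed. For the other 6 (those for alanine, proline, serine, threonine and glycine, and AGA) 4.87% were. The ratio of partner to A-ending codon was highest for CUA, with 5.06 CUG codons per CUA, and lowest for UCA, with 0.349 UCG codons per UCA. The 7 codons hold all those with a middle U or A, so this grouping is not separate from the neighbour grouping above.

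Within single codons the silent position could be set against its amino-acid-changing neighbour. Of 31097 members in codons with another adenosine 5411 (17.4%) had another listed adenosine in the codon. The wobble and the middle adenosine were both listed in 3959 AAA, CAA and GAA codons, and the wobble adenosine had the higher mean rise in 72.8% of them, 4.53 points against 2.48 points on average. The share was 81.4% in GAA, 78.8% in CAA and 68.1% in AAA codons. Both positions of such a codon come from the same message and largely the same reads, but their neighbours differ. The middle adenosine is always followed by A, and in GAA it also follows G. The wobble adenosine follows A and is followed by the first base of the next codon. Among synonymous adenosines 2.10% of those followed by A and 11.4% of those followed by G were listed. Silence of the change and neighbours cannot be told apart in this comparison. Neither position was chosen for its level, but both are listed sites, nearly all of which had a call in some library.

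Synonymous adenosines were called a little more often than amino-acid-changing ones overall and less often once the neighbours were matched. Per deaminase library a mean of 1.16% of 973672 synonymous adenosines and 1.06% of 2952324 changing adenosines of the same genes were called. Their neighbours differed, since G followed 39.7% of the synonymous and 28.4% of the changing adenosines and G preceded 18.1% and 33.4%. With the changing adenosines weighted to the same mix of the 16 pairs of neighbours, their called share was 1.45%. The geometric mean over libraries of the ratio of synonymous to changing was then 0.776 (mean log2 ratio -0.37 ± 0.07, SD over 22 libraries), from 0.708 to 0.839, and below 1 in 22 of 22 libraries (two-sided sign-flip permutation test with 100000 resamples, p = 1.00e-05, the smallest they can give, adjusted p = 1.00e-05 over 2 such tests). The libraries share constructs, genes and the list of sites, so this p describes this set of libraries.

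The ratio was not the same at all neighbours. Between U and G it went the other way: 4.35% of the synonymous and 3.35% of the changing adenosines were called, a ratio of 1.30, higher for synonymous in 22 of 22 libraries. The lowest ratio was between G and U, 0.312, where only 0.0388% and 0.125% were called. Between A and G, the neighbours of the most members, it was 0.698 (2.49% and 3.57%), and between C and G 0.868 (1.84% and 2.12%). In a codon a middle adenosine between U and G would make the stop codon UAG, which is left out. The changing adenosines at these neighbours are therefore the first base of AGN codons after a codon that ends in U, and the wobble base of AUA before G.

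AUA gave the nearest comparison for a wobble adenosine after U, since it has the codon position and the 5′ neighbour of CUA, GUA and UUA but its change is not silent. Of 37285 AUA wobble adenosines 1.29% were called per library on average. Of the synonymous ones in the other codons 2.26% were, at the same mix of next bases. The geometric mean of the libraries' ratios was 0.482 (mean log2 ratio -1.05 ± 0.40, SD over 22 libraries), from 0.198 to 0.673, and AUA was lower in 22 of 22 (two-sided sign-flip permutation test with 100000 resamples, p = 1.00e-05, the smallest they can give, adjusted p = 1.00e-05). This p, too, describes this set of libraries, which share constructs, genes and the list of sites. A codon that starts with A was also the lowest where the amino acid stays the same throughout. AAA was below CAA and GAA in 21 of 22 libraries and ACA below CCA, GCA and UCA in 21 of 22. AGA was lowest in 13 of 22.

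**Figure D3:**
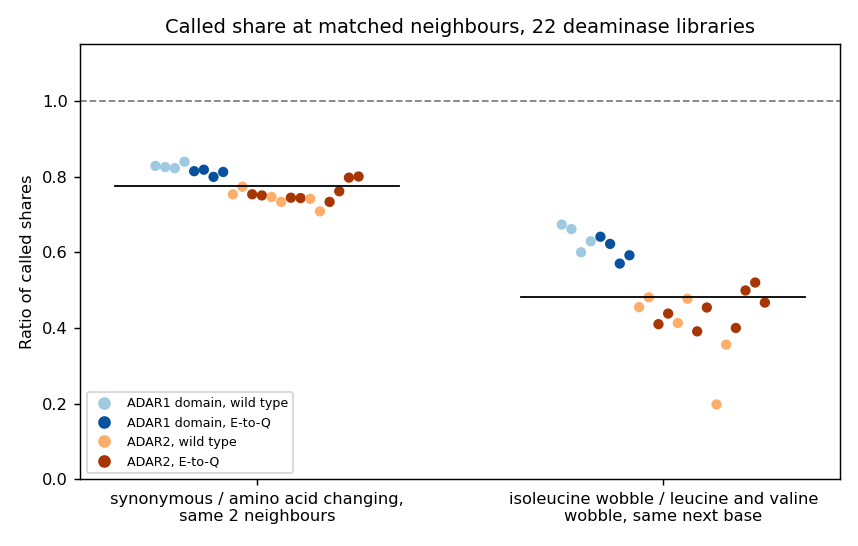
Ratio of called shares in each of the 22 deaminase libraries (points, coloured by deaminase and substitution; black line, mean on the log scale; dashed line, equal shares): left, synonymous against amino-acid-changing adenosines with the same neighbours; right, the AUA wobble (isoleucine) against the CUA, UUA and GUA wobble (leucine, valine) with the same next base. All points lie below 1, around 0.776 on the left and 0.482 on the right.

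The E-to-Q substitution went with more silent changes in every matched pair. Called members were 3.86-fold more numerous with it, from 1.84-fold to 7.61-fold over 10 pairs (mean log2 ratio 1.95 ± 0.81, SD over 10 pairs, with a rise in 10 of 10; by the exact two-sided sign-flip permutation test p = 0.00195, the smallest possible, adjusted p = 0.00781 over 4 factors). The mean level over all members was 2.51 ± 2.08% in the wild-type and 5.49 ± 3.43% in the E-to-Q libraries (SD, n = 10 each), a paired difference of 2.98 ± 1.57 points (exact sign-flip permutation adjusted p = 0.00781, higher in 10 of 10). The ranges overlapped, at 0.689% to 6.42% and 1.78% to 11.5%. Nearly every member had a call in these same libraries, more often with E-to-Q, so the set is not separate from the calls and levels compared. Calls over all listed sites rose in the same 10 pairs, so the rise was not particular to the members. The pair with the smallest rise was MCP-ADAR1 DD-NES without guide. There 34.1% and 62.8% of the members were called, and 30.3% and 59.2% of all listed sites. In the pair with the largest, MCP-ADAR2 DD-NLS with guide, these were 1.42% and 10.8%, and 1.24% and 9.94%. Some pairs have a construct in common and are not independent, and an effect of the substitution and one of construct amount cannot be told apart here.

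With the substitution synonymous sites made up a smaller part of the called coding sites. Their share was 27.3 ± 1.65% (SD, n = 10) in the wild-type libraries, from 24.8% to 29.7%. In the E-to-Q libraries it was 25.4 ± 0.948%, from 24.0% to 26.6%, so that the groups overlapped while every pair moved down. The paired difference was -1.90 ± 0.829 points (SD, 10 pairs, lower in 10 of 10; exact sign-flip permutation p = 0.00195, the smallest possible, adjusted p = 0.00781 over 4 factors). The difference by pair ran from -3.08 to -0.258 points. The gain in called members was 7.65-fold in codons with a middle G (arginine, glycine), 4.15-fold with a middle A, 3.69-fold with a middle U and 3.53-fold with a middle C. On the log2 scale the gain after G was 1.05 ± 0.39 larger than after U (SD, 10 pairs, larger in 10 of 10; exact sign-flip permutation adjusted p = 0.00781).

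The bias for a following G was weaker with the substitution. Of the called members 80.6 ± 1.49% were followed by G in the wild-type libraries, from 78.5% to 82.7%, and 70.6 ± 1.31% in the E-to-Q libraries, from 69.0% to 72.3% (SD, n = 10 each). The ranges did not overlap. Called members followed by G were 3.38-fold and the others 5.84-fold more numerous with the substitution, a difference of -0.79 ± 0.09 in log2 ratio (SD, 10 pairs, lower in 10 of 10; exact sign-flip permutation adjusted p = 0.00781).

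**Figure D4:**
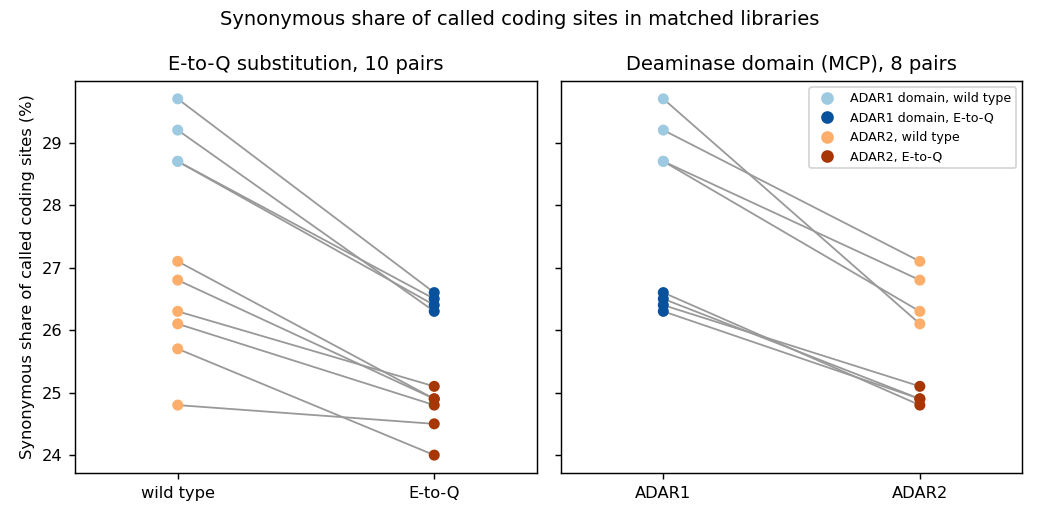
Synonymous share of the called coding sites (%; the axis does not start at 0) in matched libraries, joined by lines: left, wild type and E-to-Q in 10 pairs; right, ADAR1 and ADAR2 domains in 8 MCP pairs. All 18 lines fall, by a mean of 1.90 points on the left and 2.00 on the right.

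For single members, limma was fitted to the 16 MCP libraries. It called 26036 members for E-to-Q at an adjusted p under 0.05, 25537 higher and 499 lower. That is 40.8% of the members, and 40.4% of all listed sites were called, 39.7% higher and 0.720% lower. Of the members that were higher 61.0% had G as the next base, and of those that were lower 74.7%, against 69.1% of all members. The 5 members with the largest paired rise and 4 of those with the largest paired fall, among those with the same sign in 8 of 8 pairs, are shown for this contrast at the next base.
GBE1, leucine codon 269, higher: acacctgaagagcTACaagaactggta
CHERP, proline codon 449, higher: caccagggcggccCACcccactgcccc
SRP14, glutamate codon 75, higher: gtgagctccaaggAAGtgaataagttt
FLNC, lysine codon 158, higher: gaggatgcccgcaAACagacgcccaag
GPX3, leucine codon 85, higher: gaactgaatgcacTACaggaagagctt
BCAR1, glycine codon 567, lower: gacgctggccgggGAGgctctggagcc
SDE2, lysine codon 447, lower: gccaagcctttgaAAGggaagaaaaaa
GGT7, proline codon 210, lower: cgggagtccgcacCAGgggccctcagg
USP47, valine codon 708, lower: aaggcagaatctgTAGctgctcctata
In 4 of the 5 that were higher the next base was C, and in all 4 shown that were lower it was G.

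GBE1, the glycogen branching enzyme (chromosome 3, position 81642966), stood at 0% to 29.6% with a median of 17.5% in the 8 wild-type libraries and at 24.0% to 81.1% with a median of 57.2% in the 8 E-to-Q libraries. The groups overlapped slightly, and the paired difference was 38.8 ± 12.9 points (SD over 8 pairs; adjusted p = 3.50e-05 by limma). CHERP (chromosome 19, position 16525636) was at 4.73% to 14.0% in the wild-type and 38.8% to 50.3% in the E-to-Q libraries, with no overlap and the smallest spread of the 5, 35.3 ± 2.97 points (SD over 8 pairs; adjusted p = 2.46e-06 by limma). SRP14, a subunit of the signal recognition particle (chromosome 15, position 40037004), rose to a mean of 53.9% from 19.2%, FLNC, a filamin of muscle (chromosome 7, position 128835447), to 40.2% from 5.69%, and GPX3, a secreted glutathione peroxidase (chromosome 5, position 151026913), to 48.1% from 13.8%. The groups did not overlap at these 3. GPX3 is not synonymous at this position in every coding transcript.

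Members that were lower with E-to-Q were few. Glycine codon 567 of BCAR1 (chromosome 16, position 75235198) was at 14.9% to 31.2% in the wild-type and at 0% to 2.94% in the E-to-Q libraries, without overlap (limma adjusted p = 2.68e-05). At SDE2, a protein of replication and splicing (chromosome 1, position 225985317), the means were 30.0% and 16.5% and the groups overlapped. They overlapped too at GGT7 (chromosome 20, position 34861490), with means of 13.1% and 3.60%, and at the deubiquitinase USP47 (chromosome 11, position 11938303), with 12.1% and 4.10%. Since the adjustment runs over both directions at once, the rate of false calls within the lower group by itself is not controlled.

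The ADAR2 domain went with fewer silent changes than the ADAR1 domain in all 8 matched MCP pairs. Called members were 5.28-fold fewer (mean log2 ratio -2.40 ± 0.65, SD over 8 pairs, lower in 8 of 8; exact two-sided sign-flip permutation p = 0.00781, the smallest possible, adjusted p = 0.0104 over 4 factors). The mean level over all members was 6.68 ± 3.18% with ADAR1 and 2.10 ± 0.964% with ADAR2 (SD, n = 8 each). The paired difference was -4.58 ± 2.44 points (exact sign-flip permutation adjusted p = 0.0104). The ADAR1 libraries ran from 2.46% to 11.5% and the ADAR2 libraries from 0.927% to 3.25%. Nearly every member had a call in these same libraries, more often with ADAR1. The set of members is therefore not separate from the calls and levels compared. Calls over all listed sites fell in the same 8 pairs, so the fall in number was not particular to the members. The largest fall was in the wild-type NES pair without guide. From ADAR1 to ADAR2 it went from 34.1% to 2.73% of the members and from 30.3% to 2.48% of all listed sites. In the E-to-Q NLS pair with guide, which fell least, these were 32.3% to 10.8% and 28.9% to 9.94%. Synonymous sites were also a smaller part of the called coding sites, 25.8 ± 0.928% with ADAR2 and 27.8 ± 1.43% with ADAR1 (SD, n = 8 each), a paired difference of -2.00 ± 0.721 points (lower in 8 of 8; exact sign-flip permutation p = 0.00781, the smallest possible, adjusted p = 0.0156).

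The codons called with each domain differed. Codons with a middle A (lysine, glutamine, glutamate) held 44.7 ± 1.66% of the called members with ADAR1 (43.1% to 47.2%) and 35.7 ± 2.60% with ADAR2 (31.8% to 38.5%; SD, n = 8 each), without overlap. Those with a middle C held 27.0 ± 1.46% (24.2% to 28.5%) and 32.3 ± 2.97% (29.2% to 36.4%), also without overlap. The fall in called members with ADAR2 was 6.63-fold after A, 4.76-fold after U, 4.42-fold after C and 3.78-fold after G. The difference between G and U was 0.33 ± 0.37 in log2 ratio, larger in 7 of 8 pairs, and did not pass (exact sign-flip permutation p = 0.0391, adjusted p = 0.0521). Members followed by G fell 5.12-fold and the others 5.85-fold, a difference of 0.19 ± 0.04 (SD, 8 pairs, higher in 8 of 8; exact sign-flip permutation adjusted p = 0.0104).

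limma called 45683 members for the domain at an adjusted p under 0.05, which is 71.5% of them, while 68.6% of all listed sites were called. With ADAR2 1572 were higher and 44111 lower, against 2.60% and 66.0% of all listed sites. Of those that were higher 41.5% had a middle C, 29.4% a middle A and 12.8% a middle G, and of those that were lower 27.7%, 45.6% and 3.93%. Over all members the shares were 30.8%, 42.1% and 5.72%. The adjustment covers both directions at once, so the rate of false calls among the 1572 by themselves is not controlled. Of the members with the largest paired differences, 3 that were higher and 5 that were lower are shown for this contrast at the base before the adenosine.
PHF1, glutamine codon 35, higher with ADAR2: ctttgggagggtcAAGatgtgctggcc
NBR1, threonine codon 527, higher with ADAR2: gtgactgagcagaCAGaagggacagca
KIF3B, leucine codon 145, higher with ADAR2: agggcttcttactTAGagatctaccag
CTDSPL2, leucine codon 292, lower with ADAR2: ttctccctagtttTAGacttggatgaa
MAP7, leucine codon 404, lower with ADAR2: ggcagagcaccttTAGtgaaggtagaa
WBP1L, glutamate codon 110, lower with ADAR2: cctccttatgaggAAGtggtgaaccga
VRK1, glutamate codon 21, lower with ADAR2: agacatcttgcagAACaatttgcagtt
OSBP, glutamate codon 630, lower with ADAR2: aaggtgacgggggAAGtgacagatcca
The base before was A, C and U in the 3 that were higher, and C in none of the 5 that were lower.

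Among the members higher with ADAR2, threonine codon 527 of NBR1, an autophagy receptor (chromosome 17, position 43194406), stood at 0% to 5.33% in the 8 ADAR1 libraries with a median of 2.30%. In the 8 ADAR2 libraries it stood at 14.3% to 49.5% with a median of 36.3%, without overlap, a paired difference of 33.1 ± 9.86 points (SD over 8 pairs; adjusted p = 4.48e-06 by limma). Means with ADAR1 and ADAR2 were 14.5% and 50.8% at PHF1, a Polycomb-associated protein (chromosome 6, position 33412368). At KIF3B, a kinesin motor subunit (chromosome 20, position 32310212), they were 4.92% and 37.0%. The groups overlapped at PHF1 and KIF3B. Of the 22 deaminase libraries 3 called the KIF3B site, 6 PHF1 and 7 NBR1.

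At the members lower with ADAR2 the ADAR1 libraries showed high levels that were almost missing with ADAR2. Leucine codon 292 of CTDSPL2, a phosphatase of the SCP family (chromosome 15, position 44497132), stood at 38.1% to 79.3% with a median of 61.2% with ADAR1. With ADAR2 it stood at 0% to 15.3% with a median of 0.781%, so the groups did not overlap. The paired fall was by 59.9 ± 15.5 points (SD, 8 pairs; limma adjusted p = 1.24e-06). In the 4 full-length ADAR2 libraries, which limma did not use, the same site was at 0%. Glutamate codon 21 of VRK1, a nuclear kinase (chromosome 14, position 96833534), was at 21.5% to 69.5% with ADAR1 and at 0% to 2.56% with ADAR2 (limma adjusted p = 6.42e-07). The means were 55.1% and 3.96% at MAP7, a microtubule-associated protein (chromosome 6, position 136365796), 55.8% and 5.07% at WBP1L (chromosome 10, position 102812632) and 53.1% and 4.04% at OSBP, an oxysterol-binding lipid carrier (chromosome 11, position 59578319). None of these 5 overlapped between the domains.

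Fusions with the NLS carried fewer silent changes than those with the NES. Called members were 2.34-fold fewer (mean log2 ratio -1.23 ± 0.80, SD over 8 pairs, lower in 8 of 8; exact two-sided sign-flip permutation p = 0.00781, the smallest possible, adjusted p = 0.0104 over 4 factors). By pair the fall ran from 1.11-fold (ADAR2 E488Q with guide) to 5.22-fold (wild-type ADAR1 without guide). Calls over all listed sites fell in the same 8 pairs, so the fall was not particular to the members. In these 2 pairs they went from 11.2% to 9.94% and from 30.3% to 5.35% of all listed sites. The mean level over members was 5.47 ± 3.89% with the NES and 3.31 ± 2.29% with the NLS (SD, n = 8 each), a paired difference of -2.16 ± 1.99 points (exact sign-flip permutation adjusted p = 0.0104). Here too the members had calls in these same libraries, more often with the NES, so the set is not separate from the levels. The synonymous share of called coding sites was 26.7 ± 1.41% with the NES and 26.8 ± 1.79% with the NLS, higher in 4 of 8 pairs (paired difference 0.160 ± 0.561 points, from -0.715 to 0.973; exact sign-flip permutation p = 0.484, adjusted p = 0.646). Called members fell 3.03-fold in codons with a middle G and 2.11-fold in those with a middle U, a difference of -0.53 ± 0.47 in log2 ratio (lower in 7 of 8; exact sign-flip permutation p = 0.0234, adjusted p = 0.0469). Leaving out single pairs took this difference to between -0.62 and -0.43 and it passed in 1 of 8 such tests. Members followed by G fell 2.31-fold and the others 2.47-fold, a difference of 0.10 ± 0.08 (higher in 8 of 8; exact sign-flip permutation adjusted p = 0.0104). With calls at a deposited adjusted p under 0.001 that difference was 0.08 and did not pass (adjusted p = 0.115).

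For the localisation signal limma called 2198 members at an adjusted p under 0.05, 3.44% of them, while 3.80% of all listed sites were called. With the NLS 31 were higher and 2167 lower, against 0.0397% and 3.76% of all listed sites. On untransformed levels it called 1 member, so these calls rest on the scale. The adjustment covers both directions at once, so the rate of false calls among the 31 by themselves is not controlled. Higher with the NLS was leucine codon 594 of SON, a protein of nuclear speckles (chromosome 21, position 33551013). It stood at 12.2% to 19.1% with a median of 14.1% in the 8 NES libraries and at 19.8% to 44.7% with a median of 29.4% in the 8 NLS libraries, without overlap (paired difference 16.7 ± 9.07 points, SD over 8 pairs; limma adjusted p = 0.0190). In the 4 full-length ADAR2 libraries it was at 39.0%, 32.2%, 53.0% and 48.8%, and in the controls at up to 6.22%. C11orf68 (chromosome 11, position 65918206) had means of 1.94% with the NES and 25.3% with the NLS and no overlap. Means were 11.9% and 30.2% at RECQL4, a DNA helicase (chromosome 8, position 144516210), 7.86% and 23.2% at PDCD7, a protein of the minor spliceosome, and 6.74% and 19.0% at PPP1R37, with overlap at all 3. Of the 22 deaminase libraries 3 called the PPP1R37 site, 7 PDCD7 and 15 RECQL4.

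The members with the largest fall with the NLS coded for proteins of several compartments. FGD1, an exchange factor for CDC42 (chromosome X, position 54470603), stood at 31.2% to 57.7% with a median of 43.3% in the NES libraries and at 5.41% to 46.4% with a median of 14.3% in the NLS libraries, with overlap (paired fall by 23.6 ± 8.29 points, SD over 8 pairs; limma adjusted p = 0.0228). PTPRA, a receptor tyrosine phosphatase (chromosome 20, position 2988080), had means of 46.4% and 24.3%. The means were 32.4% and 10.2% at ATG2B, a lipid-transfer protein of autophagy (chromosome 14, position 96315208), and 36.9% and 15.2% at CEP170B (chromosome 14, position 104868552). P4HA2, a collagen prolyl hydroxylase subunit, had the largest fall of the 5, by 33.4 ± 11.9 points. On untransformed levels the limma call was lost at FGD1, PTPRA, ATG2B, CEP170B and all 5 members that were higher, with adjusted p between 0.0901 and 0.135.

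No guide effect on silent changes passed over the 11 pairs. Called members were 1.46-fold more numerous with a guide (mean log2 ratio 0.55 ± 1.05, SD over 11 pairs, with a rise in 8 of 11; by the exact two-sided sign-flip permutation test p = 0.122, adjusted p = 0.122). The pair values ran from 2.23-fold fewer to 5.87-fold more. Without the Cas13b pair, which had the greatest fall, the mean log2 ratio was 0.72 and passed (adjusted p = 0.0137). The mean level over members differed by 0.389 ± 1.60 points (adjusted p = 0.479 by the exact sign-flip permutation test). It was 0.0216 points without the full-length ADAR2 (E488Q) pair and 0.676 points without the Cas13b pair, the lowest and highest value with 1 pair left out. The synonymous share of called coding sites differed by 0.00336 ± 0.526 points (from -0.964 to 0.541; exact sign-flip permutation adjusted p = 0.981). The neighbour differences were 0.03 ± 0.28 in log2 ratio for a middle G against a middle U and 0.02 ± 0.07 for a following G against the rest, and neither passed (exact sign-flip permutation adjusted p = 0.741 and 0.408). limma called 0 members for the guide in the MCP libraries, with 2073 of 63886 at an unadjusted p under 0.05, while 7.83e-04% of all listed sites were called. With log2 levels it called 3 members, and 1 with sites of a mean level of at least 1%.

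Predicted local RNA structure was read for every synonymous adenosine, as the probability of being unpaired in windows of 80 bases of the coding sequence with pairs up to 40 bases apart. The mean probability was 0.682 over members and 0.712 over the synonymous adenosines of the same genes that were not listed. Compared within the same codon and next base the difference was -0.003, so that nearly all of the crude difference lay between kinds of codon. At the same codon and next base the difference was -0.006 for members called in 1 library, -0.006 for 2 to 5 and -0.005 for 6 to 10. Members called in more libraries were predicted slightly more open, by 0.023 for 11 to 16 libraries, 0.032 for 17 to 21 and 0.037 for all 22. The SD over adenosines was 0.276, far wider than these shifts, and the folding left out UTRs and any guide.

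The sign of this difference was not the same in all libraries. Within a codon and next base, called members had a lower predicted probability of being unpaired than members not called in all 4 wild-type ADAR1 libraries, by -0.048 and -0.049 with the NES and -0.020 and -0.023 with the NLS. In the other 18 libraries the difference was above 0, from 0.003 to 0.040. Members not called in a library were nearly all called in another one. Each value is thus relative to other libraries' calls, and its sign is no comparison with adenosines that were not listed. E-to-Q libraries were higher than their wild-type partners in 10 of 10 pairs, by 0.038 ± 0.022 (SD over pairs), and ADAR2 higher than ADAR1 in 8 of 8, by 0.023 ± 0.021. With the guide the difference was -0.002 ± 0.005 over 11 pairs. These values are a description without a test.

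**Figure D5:**
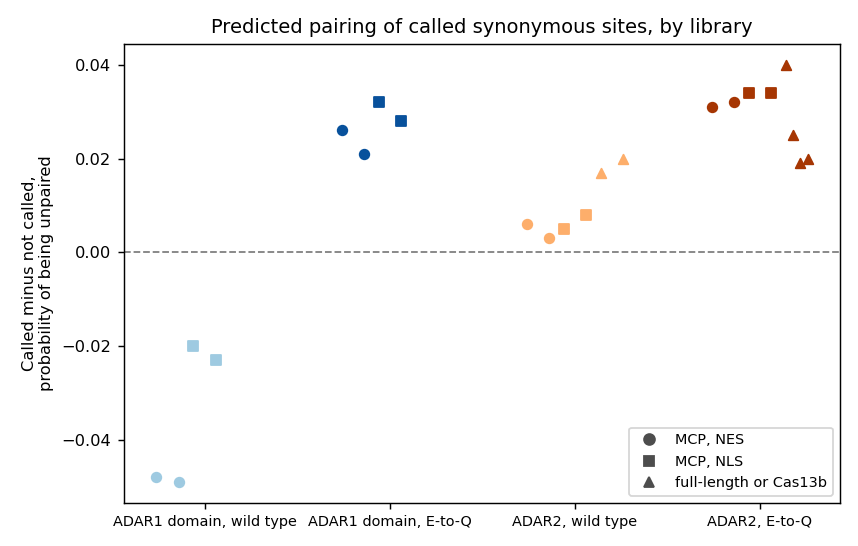
Difference in the predicted probability of being unpaired between called and not called synonymous sites at the same codon and next base, by class of deaminase; each point is 1 of the 22 libraries, and the shape gives the localisation signal or the carrier. The 4 wild-type ADAR1 libraries lie between -0.049 and -0.020, and all others between 0.003 and 0.040.

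By gene, the called members were spread widely. With each member counted in 1 gene only, at least 1 was called in 7443 genes, which are all the genes with a member by this count, with a median of 5.00 per such gene and 1178 genes with exactly 1. PRRC2A, a large proline-rich protein of the MHC region, had the most, 281 of 462 synonymous adenosines (60.8%). SON followed with 152 of 723, SRCAP, a chromatin remodelling ATPase, with 150 of 616, SRRM2, a scaffold of nuclear speckles, with 141 of 776, and HUWE1, a ubiquitin ligase, with 136 of 888. Among the 7744 genes with at least 20 synonymous adenosines, the median share called was 5.13%. The highest shares were 79.4% of 34 in SESN2, a stress-response protein, 78.4% of 37 in RACK1, a ribosome-associated scaffold, and 76.9% of 39 in the ribosomal protein gene RPL3. They were 76.5% of 34 in MAZ and 76.0% of 25 in RPL13A, another ribosomal protein gene. In RPL3, MAZ and RPL13A the mean rise of the called members was 2.08, 1.57 and 0.843 points, and in SESN2 5.51 points. Read depth differs among genes and was not measured here, and its part in these shares was not tested. Ribosomal protein genes also have near-identical pseudogenes, and reads can be split between them.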

How the data were processed

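Per the labels' protocols, libraries made from 300 ng of poly(A) RNA of 30 HEK 293T samples were sequenced as read pairs of 100 bp. Alignment used STAR 2.6.0c and GRCh38.p12, after bcl2fastq 2.18.0.12 and with SAMtools, according to the submitters' processing notes, which give no settings here. The authors deposited, per the file headers and value ranges, a table of the fraction of reads with the edited base at 382978 sites, printed here in %, and a table of their adjusted p-values for the same sites. Neither the test, its reference sample nor the rule for listing sites is given in the sources used here. There was 1 per-sample column without a name; it was left out, and with it untransfected run 1. Read depth is unknown, and the kit is not stated to keep strand.

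The members and lists were chosen with earlier results of these data known. At the listed coding positions 99.86% were A on the transcript strand. A call needed a deposited adjusted p-value under 0.01 and a level above the mean of untransfected runs 2, 3 and 4. Factors were compared in matched pairs of libraries by exact two-sided sign-flip permutation tests, with Benjamini-Hochberg adjustment over 4 factors (10 pairs for E-to-Q, 8 for the localisation signal, 11 for the guide, 8 for the domain). Over the 22 libraries 100000 resamples were drawn. Rates used all coding adenosines of the chosen transcripts, and shares of calls were weighted over 16 pairs of neighbours. Single sites were fitted over all 382978 sites in R 4.3.3 with limma 3.58.1, after an arcsine square-root transform of the fractions of the 16 MCP libraries, with 4 main effects, an intensity trend, 11 residual degrees of freedom and an adjusted p under 0.05. With 1 library per condition, that spread holds interactions as well as noise. Nearly all listed sites had a call in the deaminase libraries, so the limma counts are not separate from the listing. Structure came from ViennaRNA 2.7.2, and other steps used Python 3.11.15 with numpy 2.4.6, pandas 2.3.3, scipy 1.17.1 and matplotlib 3.10.9. The tests were tested on simulated data.

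Named members were the 10 with the highest mean rise over the deaminase libraries, the highest of each codon, and, for each factor and direction, the 5 with the largest paired difference among limma calls with the same sign in 8 of 8 pairs, skipping members in exons of more than 1 gene (2 among the highest and 1 in the limma lists). Some members that this rule names are not reported here. Named genes were the 5 with most called members, the 5 with the highest called share among those with at least 20 synonymous adenosines, and genes of members called in a control. Alternatives covered the p threshold, a minimum rise of 5 points, members in exons of 1 gene, the limma scale and terms, and each pair left out.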

Additional observations from a re-analysis of the deposited data

Results flagged for a closer look

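The fall in the synonymous share of called coding sites with E-to-Q was larger in ADAR1 than in ADAR2 fusions. It was -2.60 points over the 4 ADAR1 pairs and -1.64 points over the 4 ADAR2 pairs, a difference of 0.962 points (exact two-sided permutation of pairs, p = 0.0286, the smallest that 4 against 4 can give; adjusted p = 0.171 over the 6 differences of this kind tested). The difference did not pass the adjustment. The share was lower with E-to-Q in all 8 of these pairs. For the other 5 differences the adjusted p lay between 0.557 and 0.971 by the same exact permutation test.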

How the results depend on the processing

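The pairs tested are libraries matched by construct, and no replicate number in the labels pairs samples, since only the untransfected runs are numbered there. The E-to-Q, localisation and domain effects on called members, on the mean level and (E-to-Q, domain) on the synonymous share, and both matched ratios, kept their direction and their side of the threshold under all alternatives run. Guide effects near 0 changed sign: the synonymous share to -0.0448 points with a rise of at least 5 points and to -0.0846 with members in exons of 1 gene, a middle G against a middle U to -0.02 with calls at an adjusted p under 0.05, and a following G against the rest to -0.00143 with a rise of at least 5 points. With calls at an adjusted p under 0.001 the middle G against middle U difference for the domain passed at 0.39, and the following-G difference for the localisation signal no longer passed at 0.08. Leaving out each pair gave a range of 0.35 to 0.72 for the log2 ratio of called members with the guide, and of -0.0504 to 0.1 points for the synonymous share with the guide. For a middle G against a middle U the range was -0.62 to -0.43 for the localisation signal, -0.03 to 0.08 for the guide and 0.22 to 0.39 for the domain, which passed at 0.39 (adjusted p = 0.0312) without the MCP-ADAR1 DD (E1008Q)-NES and MCP-ADAR2 DD (E488Q)-NES pair that had no guide. The limma count for the localisation signal, 2198 members, became 1 on untransformed levels, 3532 without the intensity trend (2176 shared) and 3757 with an interaction of domain and substitution (2198 shared). For the guide it became 3 on the log2 scale and 1 with a mean level of at least 1%. On the log2 scale PPP1R37 (adjusted p = 0.0528) and CEP170B (adjusted p = 0.0676) lost their limma call. The cause of these changes was not tested, except that with 7 pairs fewer sign flips are possible. Unknown depth limits every level.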

Other observations

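A few members carried G before any deaminase was added. At 7 of them the mean of the untransfected runs was at least 10%: GRK6, a kinase of G-protein-coupled receptors, at 48.2% (chromosome 5, position 177440942), ACADM, an acyl-CoA dehydrogenase, at 46.0% (chromosome 1, position 75761337), the keratin KRT8 at 40.1% (chromosome 12, position 52900597), NDUFV2, a subunit of complex I, at 38.7% (chromosome 18, position 9134264), SERPINH1, a collagen chaperone, at 28.8% (chromosome 11, position 75566583), CENPM, a centromere protein, at 26.2% (chromosome 22, position 41945229) and ZNF346 at 24.2% (chromosome 5, position 177050839). They were called in few deaminase libraries: SERPINH1 in 7, GRK6, ACADM and CENPM in 1 each, and the other 3 in none. The mean change over the deaminase libraries ran from -7.88 points at KRT8 to 15.7 points at SERPINH1. The 4 members called in no deaminase library include KRT8, NDUFV2, ZNF346 and the RPL8 site named above.

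Codons that start with A were also compared within the same gene and at the same next base, a grouping chosen after the values were seen. The ratio of their called share to that of the other codons with the same middle base was 0.642 for AUA, 0.705 for AAA and 0.650 for ACA, each below 1 in 22 of 22 libraries. For AGA it was 1.07, below 1 in 11 of 22. These are ratios of mean called shares, unlike the geometric mean given earlier for AUA. Without the match on gene such a ratio was 0.571 for AUA. Only AUA among them changes its amino acid, and whether that or the first base goes with its lower share was not tested.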
